A study of Homo sapiens with 42 samples.

Results

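CEM, a line derived from a human T-cell acute lymphoblastic leukaemia, was compared before and after exposure to L-asparaginase. Its 6 libraries were taken from its own count table: 3 of untreated cells (A, B and C) and 3 of cells given the enzyme at 1 IU/ml for 4 h (A, B and C). They are 6 of the 42 libraries of a study of 7 acute lymphoblastic leukaemia lines, in which DND41 is the other T-cell line and Nalm6, SUPB15, RS411, REH and 697 are of B-cell precursor origin. Per the labels, all cells were grown in RPMI-1640 with serum, glutamine and antibiotics, no genetic change was made, and each line gave 3 independent experiments. CEM is a single line, so the replicates repeat one genetic background. All genes are described, of which 16080 of 50648 had enough counts in CEM to be tested.

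L-asparaginase hydrolyses asparagine in the medium and, more slowly, glutamine. Lymphoblasts that make little asparagine synthetase (ASNS) depend on asparagine from outside, which is why the enzyme is a standard drug for this leukaemia. Lack of an amino acid leaves its tRNA uncharged, the kinase GCN2 (EIF2AK4) then phosphorylates eIF2, and bulk translation falls while translation of ATF4 rises. ATF4 binds DNA with partners of the C/EBP family and switches on genes for amino acid synthesis, uptake and tRNA charging. In parallel, shortage of amino acids lowers the activity of mTORC1, a kinase complex that promotes growth, sterol synthesis and glycolysis.

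Total counts, in megacounts (M), were 22.68 to 31.6 M in the untreated and 50.81 to 71.52 M in the treated libraries, so all treated libraries were the deeper ones. Thinned to the depth of the shallowest library, the data gave 5427 changed genes, 5223 of them shared with the 5903 of the full data and all of the shared ones with the same sign. The first principal component separated treated from untreated libraries and held 77.5% of the variance. Spread was larger among untreated libraries (median SD 0.13 on the log2 scale of CPM, counts scaled to a common library size of 1 M) than among treated ones (0.076), and the small noncoding RNAs took 14.27% of the counts of treated C against 9.84 to 10.41% elsewhere. All 10 T-lineage markers were above 1 CPM, with a summed level of 2105 to 2485 CPM untreated and 2064 to 2142 CPM treated. The 9 B-lineage markers summed to 94.4 to 101 CPM untreated and 50.9 to 71.5 treated, the myeloid ones to at most 2.68 CPM, with ELANE and S100A8 at 0, and the erythroid ones to at most 0.661 CPM, with HBA2, HBB, HBG1 and ALAS2 at 0. Of the stromal markers VIM carried the sum, and COL1A2, DCN, LUM and PDGFRA were at 0.

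After 4 h, 3053 genes were higher and 2850 lower at an adjusted p under 0.05, which is 19% and 17.7% of those tested (36.7% together). At least 2-fold changes made up 636 of the rises (3.96%) and 577 of the falls (3.59%). The median log2 fold change of all tested genes was -0.003. Groups that did not overlap in CPM were found for 25.3% of genes upwards and 23.1% downwards. These shares are the background against which the gene lists below are read.

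**Figure D1:**
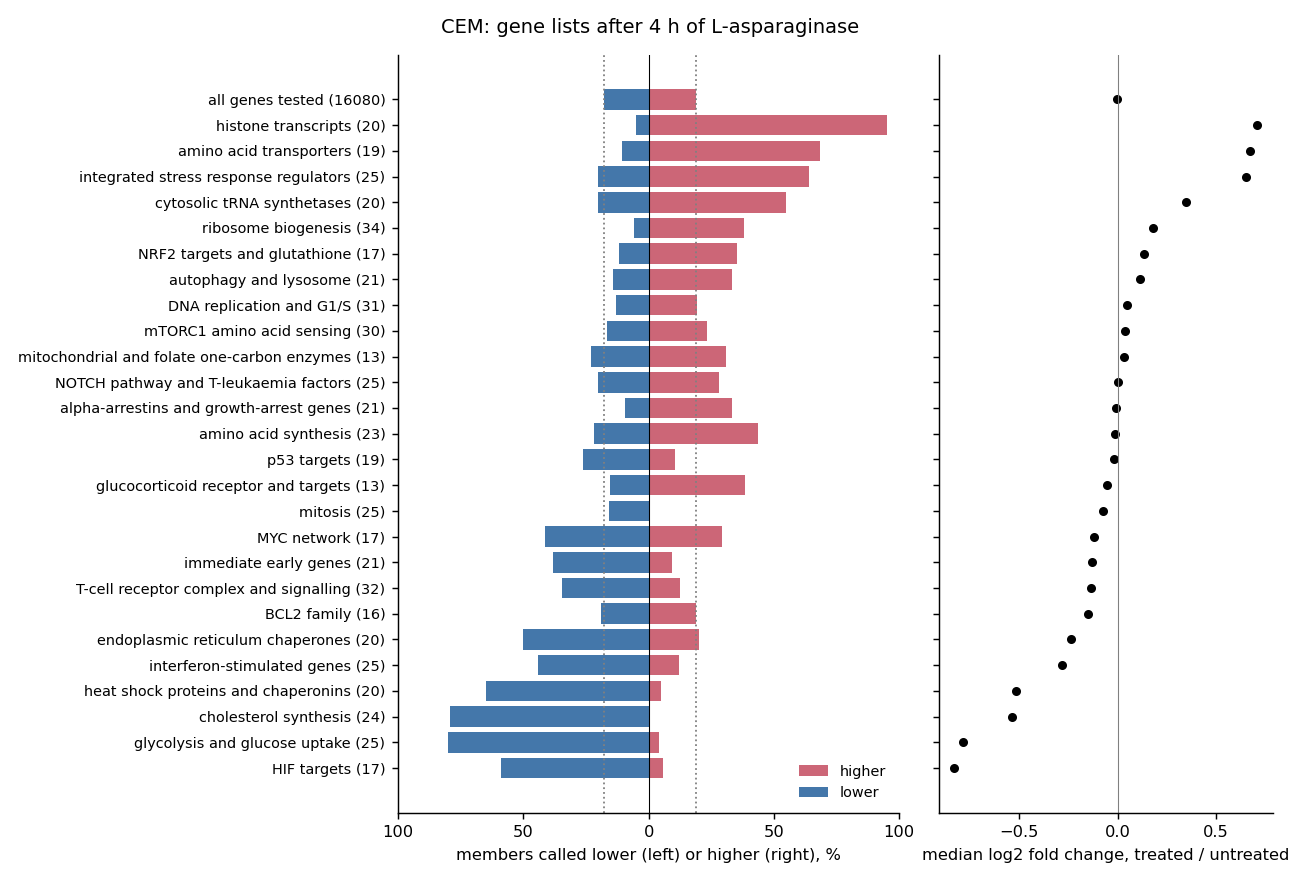
Left, share of the tested members of each gene list called higher (to the right) or lower (to the left) in treated CEM, in percent, with the number tested in brackets; dotted lines mark the shares of all genes, 19% and 17.7%. Right, median log2 fold change of each list; histones, amino acid transporters, stress regulators and tRNA synthetases lie highest, and HIF targets and glycolysis lowest.

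Regulators in the GCN2 to ATF4 pathway, the integrated stress response, were mostly higher: 16 of 25 tested members rose and 5 fell, with a median log2 fold change of 0.65. ATF4 itself was at 383, 465 and 480 CPM in untreated A, B and C and at 591, 588 and 579 CPM in treated A, B and C. Its mRNA rose 1.32-fold (log2 0.40 ± 0.10 SE, adjusted p = 0.0088), a small step beside that of the genes downstream, and the groups did not overlap. DDIT3 (CHOP), a C/EBP family partner of ATF4 that promotes cell death under lasting stress, was at 6.62, 8.41 and 8.56 CPM untreated and 47.1, 56.8 and 51.7 CPM treated. The fold was 6.57 (log2 2.71 ± 0.12, adjusted p = 1.5e-07). SESN2, a leucine-binding inhibitor of mTORC1, went from 6.08, 7.97 and 8.81 CPM to 94.6, 80.4 and 75.3 CPM, 10.9-fold (adjusted p = 9.3e-08). CHAC1, which breaks down glutathione, was at 3.56, 7.97 and 7.42 CPM untreated and 55.7, 51.2 and 52.0 CPM treated, 8.28-fold higher (adjusted p = 1.8e-06). TRIB3, a pseudokinase that restrains ATF4 and AKT, was at 55.3, 58.6 and 72.9 CPM untreated and 229, 264 and 275 CPM treated, 4.11-fold higher. All of these were clear of overlap, and the treated libraries lay close together.

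Other members showed the same direction at lower levels. INHBE, an activin subunit, was nearly silent at 0.0414, 0.063 and 0.174 CPM and reached 1.08, 1.23 and 1.28 CPM, 12.3-fold higher (log2 3.63, and 4.42 without untreated C). JDP2, a small basic leucine zipper factor, rose 5.76-fold, CEBPB 3.51-fold, the lipoprotein receptor VLDLR 3.49-fold, CEBPG 2.2-fold and ATF3 2.11-fold. CEBPB-AS1, which is named as an antisense RNA of CEBPB, was 6.71-fold higher, and reads of both genes could not be told apart because it is not given whether counting used strand. The kinases that phosphorylate eIF2 did not move together. EIF2AK4, the sensor of uncharged tRNA, was at 71.7, 68.3 and 74.4 CPM untreated and 45.2, 42.5 and 38.3 CPM treated and fell 1.7-fold (adjusted p = 5.6e-05). EIF2AK2 fell 1.41-fold, EIF2AK1 fell 1.2-fold, a call lost without untreated B or C or treated A or C (adjusted p = 0.068 to 0.18), and EIF2AK3 (PERK) rose 1.37-fold. TRIB1 and XBP1 were the other called falls, and both missed the threshold without treated C (adjusted p = 0.057 and 0.059), as TRIB1 did without treated A (0.051); without treated C the list had 2 falls, and without treated A it had 3. The eIF2 phosphatase subunits PPP1R15A (log2 0.10, adjusted p = 0.65) and PPP1R15B (log2 -0.04, adjusted p = 0.77) did not pass.

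**Figure D2:**
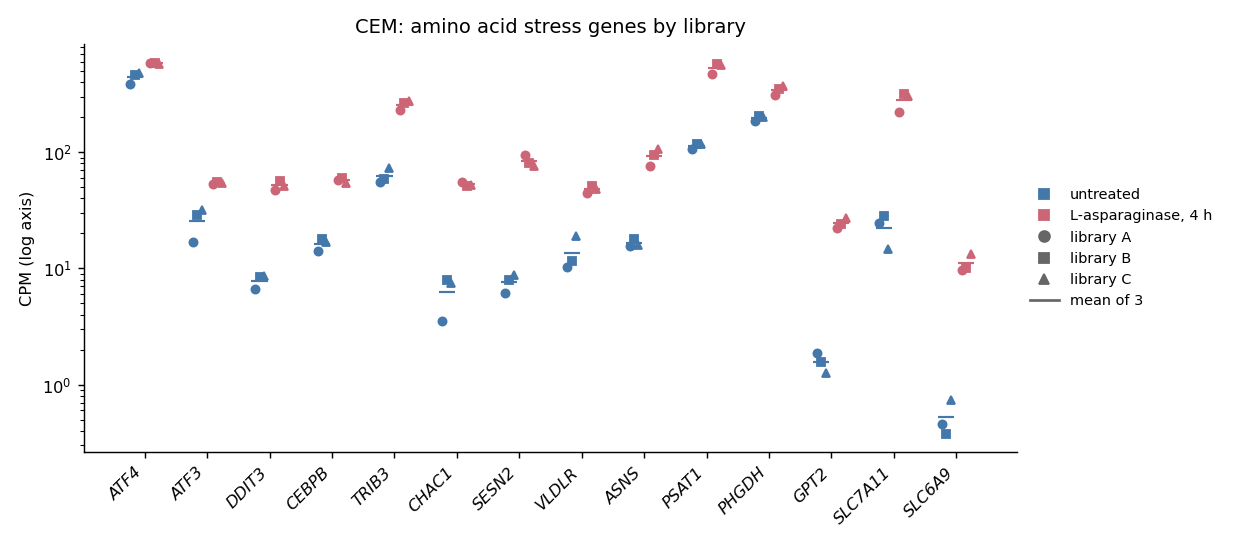
CPM of 14 amino acid stress genes in each CEM library (log axis); blue untreated, red treated, marker shape the library letter, bars the mean of 3. Treated points lie above untreated ones for every gene shown, by 1.32-fold for ATF4 and up to 21.1-fold for SLC6A9.

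ASNS, which makes asparagine from aspartate and glutamine, was among the strongest rises of an enzyme. It was at 15.6, 17.9 and 15.8 CPM untreated and 76.0, 93.8 and 107 CPM treated, 5.6-fold higher (log2 2.49 ± 0.13, adjusted p = 2.9e-07). Of the 23 tested genes of amino acid synthesis, 10 rose (43.5%) and 5 fell (21.7%), and the median was -0.01. Of all tested genes 19% rose and 17.7% fell, so only the share of rises stood clear of the background. GPT2, the mitochondrial alanine aminotransferase, went from 1.86, 1.58 and 1.25 CPM to 22.4, 24.0 and 26.9 CPM, 15.7-fold. Serine synthesis genes rose: PSAT1 was at 106, 118 and 118 CPM untreated and 475, 569 and 559 CPM treated (4.69-fold), PSPH rose 3.22-fold and PHGDH 1.74-fold. SHMT2, which turns serine into glycine in mitochondria, rose 2.33-fold, and the proline enzyme PYCR1 rose 1.97-fold. The falls included enzymes that use or make glutamine and glutamate: GLUL (glutamine synthetase) fell 1.35-fold, GOT2 1.32-fold, ALDH18A1, the entry to proline synthesis, 1.51-fold and the branched-chain aminotransferase BCAT2 1.63-fold. GLUD1 (log2 -0.01) and BCAT1 (log2 -0.04) did not pass, with adjusted p values of 0.94 and 0.87. In the folate branch 4 of 13 genes rose and 3 fell. MTHFD2, the mitochondrial folate dehydrogenase, was at 159, 187 and 196 CPM untreated and 608, 665 and 689 CPM treated (3.62-fold), and MTHFD1L rose 1.7-fold, while the serine carrier SFXN1 fell 1.48-fold.

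Of 19 tested amino acid transporters, 13 rose and 2 fell, with a median of 0.67. SLC6A9, a glycine importer, was at 0.455, 0.378 and 0.731 CPM untreated and 9.64, 10.1 and 13.4 CPM treated, 21.1-fold higher (log2 4.4 ± 0.24, adjusted p = 4.7e-07). SLC7A11, which exchanges glutamate for cystine, was at 24.5, 28.0 and 14.8 CPM untreated and 222, 314 and 304 CPM treated, 12.5-fold higher. Its partner chain SLC3A2 rose 3.04-fold, and SLC7A5, which pairs with SLC3A2 to carry large neutral amino acids, rose 2.68-fold. SLC1A5, a glutamine and neutral amino acid exchanger, rose 3.21-fold, and SLC1A4, its relative that carries alanine, serine and cysteine, rose 1.84-fold. SLC38A2, the inducible importer of small neutral amino acids, rose 1.46-fold. The members that fell were SLC36A4 (1.65-fold) and SLC38A5 (1.47-fold).

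Of 20 cytosolic aminoacyl-tRNA synthetases, the enzymes that load each tRNA, 11 rose (55%) and 4 fell (20%), with a median of 0.35. Of all tested genes 19% rose and 17.7% fell, so the share of falls was near the background. CARS was at 46.9, 52.0 and 47.3 CPM untreated and 145, 154 and 161 CPM treated, 3.15-fold higher, followed by GARS (2.54-fold), AARS (2.41-fold), TARS (2.34-fold) and MARS (2.1-fold). The enzyme for asparagine, NARS, rose 1.62-fold. DARS, the enzyme for aspartate, went the other way, from 236, 312 and 393 CPM to 176, 188 and 199 CPM, 1.67-fold lower (adjusted p = 0.0023). VARS (1.32-fold), KARS (1.23-fold) and QARS (1.15-fold) were the other called falls. The count of 4 falls was not stable: it was 1 without untreated B, treated B or treated C and 2 without untreated C.

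Stress genes of the ATF4 pathway are known to carry a C/EBP-ATF response element, whose core is TGATGNAA. It was searched on both strands in RefSeq promoters (GRCh38.p14), each reaching from 250 bases before to 50 after the annotated start, of which 487 of the 637 named or listed genes had an entry. The motif was in 3.67% of all 27305 promoters and in 1.7% of the 9821 promoters of genes tested in CEM. It was in 2.6% of promoters of genes that rose and 0.888% of those that fell, and in 7.08% of the 325 promoters of genes that rose at least 2-fold. These shares of tested genes leave out genes whose RefSeq symbol differs from that in the counts, AARS, CARS, TARS and MARS among them. By list, with synthetase symbols translated, the motif was in 6 of 16 tRNA synthetases (37.5%), 4 of 19 transporters (21.1%), 3 of 16 synthesis genes (18.8%), 4 of 25 stress regulators (16%) and 0 of 18 cholesterol genes. Of the 25 named or listed genes with a match, 17 rose, 7 did not pass and HK1, a hexokinase, fell. Many named genes were picked because they were called, and the lists with earlier results known. This split is therefore partly set by the choice of genes and is not evidence about the motif. Windows of 5 genes that rose, from the stress, synthesis, synthetase and folate lists, are shown because they place the match beside a measured rise. They run 5′ to 3′ on the strand of the gene, with the match in capitals. A match on the opposite strand reads TTGCATCA in this orientation. A match describes letters and shows no binding.
CHAC1, chr15:40953222-40953309, plus strand, match starting 209 bases before the start: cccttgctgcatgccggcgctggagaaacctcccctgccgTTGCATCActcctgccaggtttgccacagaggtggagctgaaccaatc
ASNS, chr7:97872429-97872516, minus strand, match starting 68 bases before the start: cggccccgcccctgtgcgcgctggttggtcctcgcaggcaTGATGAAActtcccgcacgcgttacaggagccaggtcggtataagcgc
AARS, chr16:70289646-70289733, minus strand, match starting 187 bases before the start: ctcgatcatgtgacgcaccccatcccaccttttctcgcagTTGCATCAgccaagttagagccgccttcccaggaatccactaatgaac
GOT1, chr10:99430775-99430862, minus strand, match starting 198 bases before the start: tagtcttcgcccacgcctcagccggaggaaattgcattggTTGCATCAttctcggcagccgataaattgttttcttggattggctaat
MTHFD1L, chr6:150866317-150866404, plus strand, match starting 129 bases before the start: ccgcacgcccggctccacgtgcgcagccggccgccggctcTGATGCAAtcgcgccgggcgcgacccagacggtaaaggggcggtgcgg
Beside these sequences, the rises were 8.28-fold for CHAC1, 5.6-fold for ASNS, 2.41-fold for AARS, 1.7-fold for MTHFD1L and 1.45-fold for GOT1, the cytosolic aspartate aminotransferase.

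The largest falls were in genes that answer to hypoxia-inducible factor (HIF), the transcription factor that adapts cells to low oxygen. HIF targets outside glycolysis fell in 10 of 17 tested members and rose in 1, with a median of -0.83. MIR210HG, the host transcript of a hypoxia-induced microRNA, was at 6.0, 6.99 and 14 CPM untreated and at 0.0579, 0.141 and 0.157 CPM treated (log2 -6.18 ± 0.42, adjusted p = 2e-06), the largest fall among genes whose groups did not overlap and whose average log2 CPM was 1 or more. BNIP3, a mitochondrial protein that promotes mitophagy, was at 108, 138 and 285 CPM untreated and 12.3, 13.7 and 17.6 CPM treated, 12.2-fold lower. P4HA1, a collagen prolyl hydroxylase, went from 146, 209 and 379 CPM to 48.8, 54.2 and 74.3 CPM, 4.14-fold lower, and its relative P4HA2 was 8.95-fold lower. AK4, a mitochondrial adenylate kinase, was 13.9-fold lower, NDRG1 2.86-fold, BNIP3L 2.61-fold and the HIF prolyl hydroxylase EGLN1 2.29-fold. VEGFA, the angiogenic growth factor, is a HIF target that did the opposite, from 2.90, 6.87 and 8.98 CPM to 13, 20.1 and 24.2 CPM, 3.02-fold higher (adjusted p = 0.0017). The mRNA of HIF1A did not pass (log2 0.02 ± 0.08, adjusted p = 0.86).

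Glycolysis moved with them: 20 of 25 genes fell, 1 rose, and the median was -0.78. PFKFB4, which makes the activator of phosphofructokinase, was at 47.3, 56.6 and 114 CPM untreated and 2.45, 3.22 and 3.86 CPM treated, 22.8-fold lower (log2 -4.51 ± 0.31, adjusted p = 2.3e-06). SLC16A3, a lactate exporter, was 3.96-fold lower, ENO2 3.4-fold, PFKP 2.39-fold, PGAM1 2.14-fold, HK2 2.12-fold and the glucose transporter SLC2A1 1.74-fold. LDHA, which makes lactate, was at 1365, 1727 and 2570 CPM untreated and 817, 766 and 825 CPM treated, 2.35-fold lower. GAPDH did not pass (log2 -0.25 ± 0.13, adjusted p = 0.17). PFKFB2 was the 1 rise (1.47-fold), and that call was lost without untreated B or C or any 1 of the treated libraries.

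Untreated C was the highest library for BNIP3, P4HA1, PFKFB4, LDHA and SLC16A3, and untreated A the lowest, so the untreated baseline of these genes varied. Without untreated C the log2 fold changes were -3.08 for BNIP3, -1.58 for P4HA1, -4.02 for PFKFB4, -0.94 for LDHA and -5.71 for MIR210HG, and each call remained. With any 1 library left out, 20 to 21 glycolysis genes and 7 to 10 HIF targets were called lower.

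**Figure D3:**
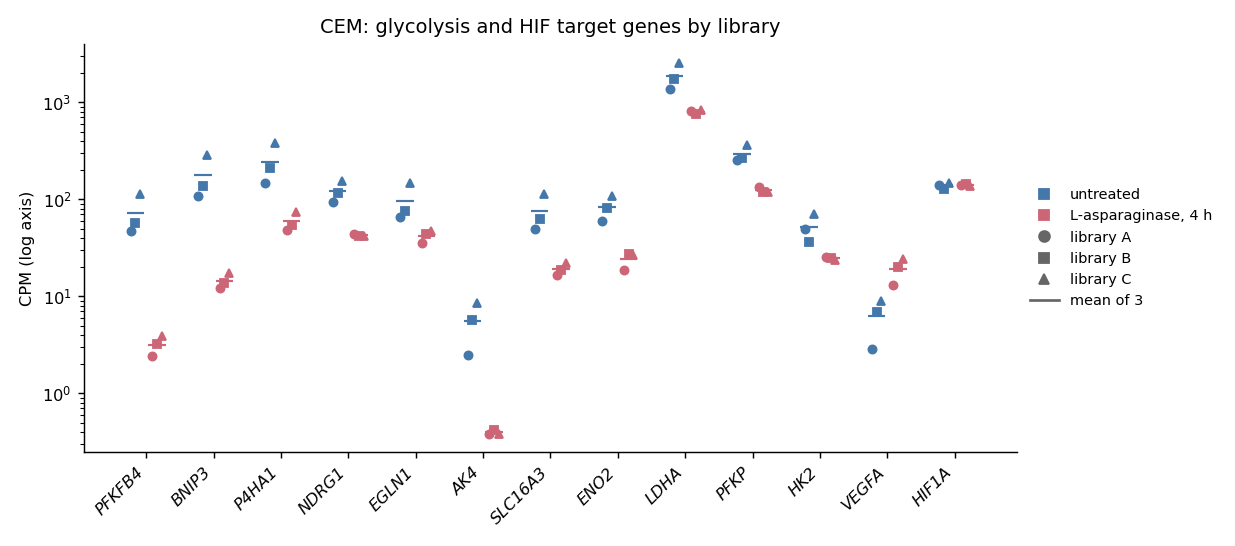
CPM of 13 glycolysis and HIF target genes in each CEM library (log axis), colours and shapes as in the plot of stress genes. Treated libraries lie below untreated ones from PFKFB4 to HK2, untreated C is the highest for most of them, VEGFA lies above, and HIF1A overlaps.

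Sterol synthesis genes, which the factor SREBP2 (encoded by SREBF2) switches on when membranes run short of cholesterol, fell in 19 of 24 tested members and rose in 0, with a median of -0.54. INSIG1, which retains SREBP in the endoplasmic reticulum and is itself its target, went from 520, 470 and 566 CPM to 181, 198 and 184 CPM, 2.76-fold lower (log2 -1.47 ± 0.10, adjusted p = 1.7e-06). HMGCS1 fell 2.61-fold, IDI1 1.96-fold and FDFT1 1.92-fold. The mRNA of SREBF2 itself did not pass (log2 -0.35, adjusted p = 0.14). With 1 library left out, 13 to 21 members were called lower.

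Chaperones were lower in many members. Of 20 cytosolic and mitochondrial heat shock proteins and chaperonins, 13 fell and 1 rose (2 without untreated C or with the replicate block), with a median of -0.52, and of 20 chaperones and quality control genes of the endoplasmic reticulum 10 fell and 4 rose, with a median of -0.24. HSPA8, the constitutive HSP70, was at 1157, 1377 and 2172 CPM untreated and 512, 586 and 568 CPM treated, 2.83-fold lower, and HSP90AA1 was 1.89-fold lower. HSPA5 (BiP), the main HSP70 of the endoplasmic reticulum, was at 96.8, 80.9 and 120 CPM untreated and 42.2, 50.6 and 41.0 CPM treated, 2.22-fold lower, and HSP90B1 was 1.85-fold lower. The rises were HSPA9, the mitochondrial HSP70 (1.31-fold), and the degradation genes EDEM1 (1.55-fold), HERPUD1 (1.46-fold) and SEL1L (1.31-fold) with the cochaperone DNAJB11 (1.21-fold), whose call was lost without untreated B (adjusted p = 0.075), treated B (0.056) or treated C (0.055). DDIT3 and CHAC1 thus rose in the same libraries in which HSPA5 and HSP90B1 fell. The near-identical HSPA1A and HSPA1B, whose reads may be split, did not pass.

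No subunit of CD3, the signalling part of the T-cell receptor, other than the zeta chain passed the test. Of 32 genes of the T-cell receptor and its signalling, 4 rose, 11 fell and 17 did not pass, with a median of -0.13 and 2 rises without untreated B or treated B. CD3D (log2 -0.16), CD3E (-0.04), CD3G (-0.09), CD7 (-0.10), CD5 (-0.18) and CD2 (0.03) did not pass. The zeta chain CD247 fell 1.56-fold, LCK, the kinase that starts receptor signalling, fell 1.25-fold, and CD4 fell 1.8-fold.

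Other T-lineage genes that passed included those of receptor gene assembly. RAG1, which cuts DNA to assemble receptor genes, was at 283, 286 and 280 CPM untreated and 164, 161 and 146 CPM treated, 1.8-fold lower (adjusted p = 2.2e-05), and its partner RAG2 fell 2.19-fold. DNTT (TdT), which adds nucleotides at the joints, was at 138, 149 and 184 CPM untreated and 74.4, 58.8 and 54.1 CPM treated, 2.52-fold lower. THEMIS, needed for thymocyte selection, was at 77.8, 90.3 and 172 CPM untreated and 40, 41.6 and 47.6 CPM treated, 2.64-fold lower, and untreated C was again the highest. CD1A, CD1C and CD1E, lipid-presenting molecules of cortical thymocytes, were 1.97, 1.82 and 1.94-fold lower, with treated A above treated B and C in each. The call of CD1A was lost without treated C (adjusted p = 0.053) and that of CD1E without treated B (0.052) or treated C (0.057).

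Among NOTCH pathway genes and leukaemia transcription factors 7 of 25 rose and 5 fell, with a median of 0.00. MYB, a factor that drives leukaemic growth, was at 495, 511 and 549 CPM untreated and 902, 998 and 917 CPM treated, 1.81-fold higher (adjusted p = 5.4e-05). LMO2 rose 1.84-fold, its partner LYL1 1.68-fold, ETV6 1.47-fold and the NOTCH regulator DTX1 1.88-fold. NOTCH3 fell 2.73-fold, from 11.8, 8.76 and 7.42 CPM to 3.39, 3.27 and 3.55 CPM, NOTCH2 fell 1.48-fold and the NOTCH partner RBPJ 1.45-fold. NOTCH1 (log2 -0.06 ± 0.15), HES1 (log2 -0.20 ± 0.13), GATA3 (log2 0.00 ± 0.16) and TCF7 (log2 -0.08 ± 0.10) did not pass. TAL1 fell 1.23-fold, a call lost without untreated B, treated A or treated C.

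**Figure D4:**
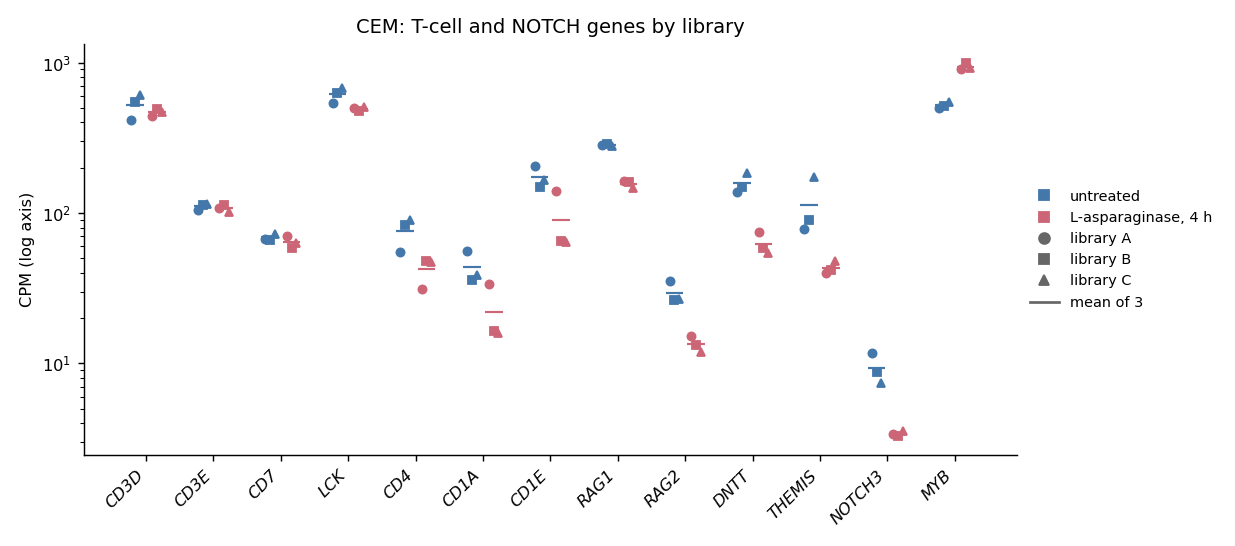
CPM of 13 T-cell, recombination and NOTCH genes in each CEM library (log axis), colours and shapes as in the plot of stress genes. CD3D, CD3E and CD7 overlap between groups, RAG1, RAG2, DNTT, THEMIS and NOTCH3 lie lower in treated libraries, and MYB higher.

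MYC, a transcription factor that promotes cell growth, was at 153, 152 and 153 CPM untreated and 128, 128 and 103 CPM treated. It fell 1.28-fold (adjusted p = 0.012), but not without treated C, where the log2 fold change was -0.25 (adjusted p = 0.069). In its network 5 of 17 genes rose and 7 fell. MYCN, a paralogue, rose 2.23-fold from 9.35, 15.7 and 14.9 CPM to 22.1, 35.5 and 31.9 CPM. With 1 library left out, 2 to 5 genes of the network were called higher and 3 to 7 lower; the higher count was 2 without treated B or treated C, 3 without untreated B, and the lower count 3 without treated C and 4 without untreated B or treated B.

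Most cell cycle genes did not pass: 21 of 31 of DNA replication and 21 of 25 of mitosis, with 6 rises and 4 falls in the first and 0 rises and 4 falls in the second (1 rise without untreated A or B, 2 with the replicate block). The replication shares, 19.4% higher and 12.9% lower, did not exceed the background of 19% and 17.7% by more than a small step. With 1 library left out, replication had 2 to 6 rises (2 without untreated B, 3 without treated A or treated B) and 1 to 8 falls (1 without treated C, 2 without untreated B, untreated C or treated B, 8 without untreated A). CCND3, the cyclin that drives T-cell precursors into S phase, had the largest fall among them, at 518, 541 and 560 CPM untreated and 294, 281 and 289 CPM treated, 1.87-fold lower (adjusted p = 1.8e-05). CDKN1B (p27), an inhibitor of cyclin-dependent kinases, rose 1.72-fold. Histone transcripts rose in 19 of 20 tested members and fell in 1, with a median of 0.71. HIST1H3H was at 935, 1156 and 733 CPM untreated and 2543, 2691 and 2677 CPM treated, 2.8-fold higher, and HIST1H2BJ rose 2.89-fold. These paralogues are near-identical and reads may be split among them, and most of their mRNAs lack a poly(A) tail, so their level depends on how RNA was selected, which is not given in the labels. Ribosome biogenesis genes rose in 13 of 34 and fell in 2 (1 without untreated B or treated B, 0 without untreated C or treated C), with a median of 0.18, as UTP20 (1.6-fold), UBTF (1.48-fold) and POLR1B (1.47-fold) show.

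Of the BCL2 family, which controls mitochondrial cell death, 3 of 16 rose and 3 fell, with 6 falls without untreated A. These shares, 18.8% each way, were near those of all tested genes (19% and 17.7%), so the list as a whole did not stand out. The rises were the BH3-only genes PMAIP1 (NOXA), at 35.8, 46.2 and 55.2 CPM untreated and 107, 114 and 119 CPM treated (2.48-fold, adjusted p = 2.4e-05), BBC3 (PUMA), 3.3-fold higher, and HRK, 3.49-fold higher at under 1 CPM. BIK fell 2.03-fold, BID 1.48-fold and the survival gene BCL2L1 1.25-fold, whereas BCL2 (log2 0.11), MCL1 (log2 -0.19) and BCL2L11 (BIM, log2 -0.17) did not pass. Among p53 targets 2 of 19 rose and 5 fell, with 4 rises without untreated A or C, 1 without untreated B, treated A or treated B and 5 with the replicate block. CDKN1A (log2 -0.01) and MDM2 (log2 0.20) did not pass, and ZMAT3 fell 2.68-fold.

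Of 21 tested alpha-arrestin and growth-arrest genes, 7 rose and 2 fell, with 4 falls without untreated A, 1 without treated A or B and 0 without untreated B or treated C. ARRDC3, an alpha-arrestin that helps to internalise receptors, was at 23.2, 18.6 and 28.8 CPM untreated and 90.1, 115 and 128 CPM treated, 4.73-fold higher, ARRDC4 rose 3.28-fold and TXNIP, which lowers glucose uptake, 1.69-fold. TSC22D3 (GILZ), a target of the glucocorticoid receptor, was at 3.97, 7.37 and 7.0 CPM untreated and 17.6, 24.3 and 24.2 CPM treated, 3.57-fold higher. NR3C1, the receptor itself, rose 1.39-fold (adjusted p = 0.0012); of the 13 genes of its list 5 rose and 2 fell. Within the mTORC1 sensing list 7 of 30 rose and 5 fell: besides SESN2, EIF4EBP1, a repressor of translation, rose 2.5-fold, DDIT4 1.95-fold and DEPDC5, of the GATOR1 complex, 1.49-fold, while the GTPase RRAGD fell 2.04-fold. Without treated B or C, 4 of these rises and 3 of the falls were called. The shares of the mTORC1 list, 23.3% higher and 16.7% lower, were near those of all tested genes (19% and 17.7%).

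NRF2 targets rose in 6 of 17 and fell in 2, with 5 falls without untreated A and 1 without any other 1 library. NFE2L2, which encodes NRF2, rose 1.61-fold, NQO1 2.07-fold and GCLM, of glutathione synthesis, 1.52-fold. Autophagy and lysosome genes rose in 7 of 21 and fell in 3, each rise of 1.16 to 1.28-fold, with 3 to 6 rises when 1 library was left out (3 without treated B, 4 without untreated B, treated A or treated C). Immediate early genes, which report receptor and MAP kinase signalling, fell in 8 of 21 and rose in 2, with 5 falls without treated C and 1 rise without untreated B, treated B or treated C. NR4A1, which tracks T-cell receptor signalling, was at 9.73, 11.5 and 6.65 CPM untreated and 3.03, 3.45 and 2.78 CPM treated, 3.01-fold lower. Interferon-stimulated genes fell in 11 of 25 and rose in 3: STAT2 was 2.26-fold lower and IFIT1 2.98-fold, while IRF1 rose 1.57-fold. Their count of falls was 4 without treated C, 5 without untreated B or treated A, and 6 without untreated C.

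Several of the largest changes were outside these lists. Metallothioneins, zinc-binding proteins induced by free zinc, were grouped after their values had been seen. MT1H was at 0.207, 0.0315 and 0.313 CPM untreated and 3.32, 3.90 and 3.81 CPM treated, 20.4-fold higher (log2 4.35, and 5.06 without untreated C), MT1E was 9.26-fold higher and MT1G 7.42-fold, although reads of these near-identical genes may be shared. The zinc exporter SLC30A1 rose 1.84-fold and the importer SLC39A10 fell 1.86-fold. The pseudogene ROCK1P1 was 17.4-fold higher, and its reads were not told apart from those of its parent gene. The motor protein KIFC3 was 7.62-fold higher. Among the falls were the receptor-like GPR162 (12.1-fold), the tetraspanins TSPAN11 (8.68-fold) and TSPAN9 (5.27-fold), DAAM2, a formin of Wnt signalling (6.22-fold), PPFIA4, a liprin (6.22-fold), and the nuclear receptor RORA (5.64-fold), which fell from 6.58, 8.32 and 15.8 CPM to 1.23, 2.16 and 2.01 CPM. The noncoding RP11-798M19.6 (5.03-fold) and C2CD4C (4.91-fold) completed the 12 largest falls.

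The response of CEM was then set against the mean response of the other 6 lines in a joint model of all 42 libraries, which tested 20983 genes. In 126 genes (0.6%) CEM lay above that mean and in 119 (0.567%) below, with differences of at least 2-fold in 0.272% and 0.3% of genes, so the test told few of its changes apart from those of the other lines. These counts depended on the libraries used: they were 437 and 302 without 5 untreated libraries of other lines (A of Nalm6, SUPB15, RS411 and DND41 and 1 of 697), in which small noncoding RNAs took 3.35 to 7.23% of counts against 7.83 to 13.47% in the other untreated libraries of those lines. Its part in the counts was not tested. The lower count was 77 without 3 treated libraries of other lines (SUPB15 C, REH A and RS411 B), and leaving out any 1 of the 6 CEM libraries gave 50 to 74 and 34 to 71. With the replicate letter as a block they were 216 and 207.

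ASNS was one of these genes. Its log2 fold change was 2.48 ± 0.25 in CEM and 0.83 ± 0.11 over the other lines, a difference of 1.64 ± 0.26 (adjusted p = 0.00033), and this call passed under each alternative run. Line by line, 697 came close to CEM at 2.29 ± 0.24 and REH followed at 1.43 ± 0.24, while Nalm6 (0.55), DND41 (0.51), SUPB15 (0.29) and RS411 (-0.06) were low. The mean untreated ASNS level, on the scale of the joint model, was 15.8 CPM in CEM, against 1.7 in DND41, 1.35 in RS411, 1.26 in SUPB15, 44.6 in 697, 69 in REH and 73.7 in Nalm6. After treatment CEM stood at 88.3 CPM, above its starting level but below treated 697 (218 CPM), REH (185 CPM) and Nalm6 (108 CPM). SLC7A11 was above the mean of the others by 1.74 ± 0.38 (adjusted p = 0.013) and SLC6A9 by 1.99 ± 0.46 (adjusted p = 0.018). The first call was lost without untreated C (adjusted p = 0.11), treated B (0.061) or treated C (0.055), and the second without untreated A (0.078), untreated B (0.14) or treated C (0.085) and with the replicate block (0.054). ROCK1P1 was above by 2.40 ± 0.44 and CEBPB-AS1 by 1.08 ± 0.26, a call lost without any 1 CEM library but untreated B (adjusted p = 0.077 to 0.15). Of the 12 genes that the naming rule always includes, most of them stress genes, ASNS and SLC7A11 passed this test and the other 10 did not, DDIT3 (0.50 ± 0.22), SESN2 (0.99 ± 0.47) and CHAC1 (1.11 ± 0.47) among them, which does not show equal responses.

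**Figure D5:**
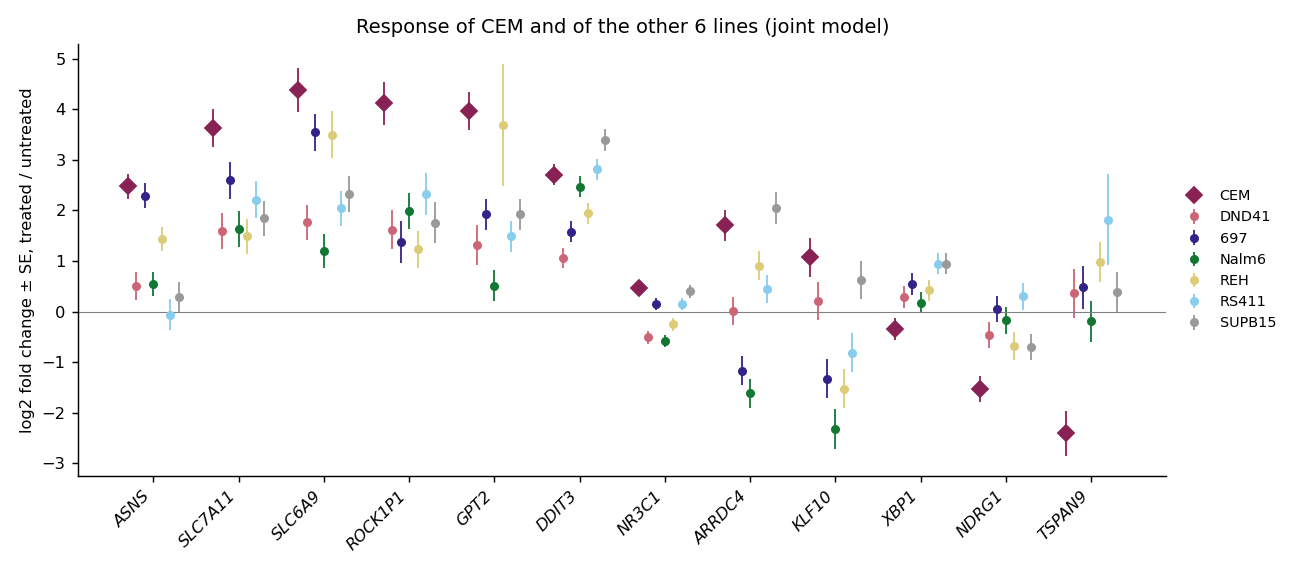
Log2 fold change, treated over untreated, with SE, of 12 genes in the 7 lines from the joint model; diamonds are CEM. For ASNS, CEM (2.48) and 697 (2.29) lie together above the other lines, and for TSPAN9 and NDRG1 CEM lies below all of them.

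Of the 21 tested alpha-arrestin and growth-arrest genes, 2 passed above the other lines and 0 below, with a median difference of 0.01. NR3C1, of the glucocorticoid list, rose by 0.46 ± 0.12 (log2) in CEM and averaged -0.11 ± 0.05 elsewhere, a difference of 0.58 (adjusted p = 0.018), lost without any 1 CEM library but treated A (adjusted p = 0.063 to 0.091). ARRDC4 was 1.60 above the other lines, where SUPB15 rose more (2.04) and Nalm6 fell by 1.61, and KLF10 was 1.93 above, with opposite signs in CEM (1.07) and in Nalm6 (-2.32), REH (-1.53) and 697 (-1.32). The KLF10 call was lost without untreated A (adjusted p = 0.06), untreated C (0.082), treated B (0.055) or treated C (0.051). STAT4, a cytokine signalling factor, PAX8-AS1, CAMSAP2 and TBC1D8 were higher in CEM by 3.10, 4.00, 2.52 and 1.98 relative to the others, but from low levels: STAT4 went from 0.29, 0.315 and 0.139 CPM to 2.20, 2.56 and 3.06 CPM in CEM and stood at 43.2 CPM in untreated DND41. Over the 30 genes at 20 CPM or more in untreated DND41 and below 0.1 CPM in untreated CEM, the treated CEM level had a median of 0.0026% of that of DND41. By the same limits the median was 0.014% (RS411) to 0.021% (REH) for the B-cell precursor lines, and COL6A3, of the SUPB15 set, reached 1 CPM in treated CEM. STAT4, PAX8-AS1, CAMSAP2 and TBC1D8 were above 0.1 CPM in untreated CEM, so these values do not cover them. Whether transcripts of other lines added to their levels was not tested. The call of PAX8-AS1 was lost without the 5 untreated libraries (3.38, adjusted p = 1). MYO7A (2.20) and HECW1 (2.84) were the remaining genes of the 8 furthest above, the latter lost without any 1 library other than untreated A.

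Below the mean of the other lines stood TSPAN9 (-3.05 ± 0.50, adjusted p = 0.00042), which fell in CEM and averaged 0.64 elsewhere, and NDRG1 (-1.25, adjusted p = 0.017), a HIF target whose response in the other lines averaged -0.28. The NDRG1 call was lost without untreated C (-1.03, adjusted p = 0.15) or any 1 treated library (0.068 to 0.082). XBP1 differed by -0.90 (adjusted p = 0.039), with -0.34 in CEM against 0.55 elsewhere, a call lost without any 1 CEM library (adjusted p = 0.077 to 0.18). The liprin PPFIA4 (-1.51) and RP11-798M19.6 (-1.43) fell further in CEM than elsewhere, the first call lost without any 1 CEM library but treated C and the second without any 1. TLR1 (-2.03), the glycosyltransferase B3GNT5 (-1.99) and SNX22 (-1.88) were lower, from untreated CEM means of 0.516, 3.4 and 1.5 CPM. CD1C was -2.17 relative to the others, which express it at 1.03 CPM or less untreated, and this call was lost without treated B (adjusted p = 0.061) or treated C (0.062). MMP11, NEIL2 and MICAL2 completed the 8 furthest below and were lost under several of the alternatives; MICAL2 was -1.01 (adjusted p = 1) without the 3 treated libraries. MICAL2 did not fall in CEM, where it was at 54.1 CPM untreated and 62.2 CPM treated on the scale of the joint model. Its mean rose in every other line, in DND41 from 28.5 to 78.5 CPM. In REH, RS411 and SUPB15 it stayed at 0.659 CPM or less, so those responses rest on few counts.

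Against DND41, the other T-cell line, 199 genes (0.948%) responded more in the upward direction in CEM and 178 (0.848%) less, of 20983; 0.543% and 0.491% did so by at least 2-fold. Without the 5 untreated libraries, 1 of which is of DND41, the counts were 905 and 524, with the replicate block 308 and 295, and leaving out any 1 CEM library gave 113 to 134 and 76 to 109. Stress genes were among those that rose more in CEM: ASNS differed by 1.97 (adjusted p = 0.0019), DDIT3 by 1.65 (0.0009), GPT2 by 2.65 (0.006) and SLC6A9 by 2.62 (0.007). On the scale of the joint model, SLC6A9 went from 0.503 to 10.6 CPM in CEM and from 3.10 to 10.5 CPM in DND41, so treated levels were alike. DDIT3 started lower in CEM, at 7.58 CPM untreated and 49.6 treated, against 18.6 and 38.7 CPM in DND41. GPT2 was low in DND41, at 0.773 CPM untreated and 1.91 CPM treated. DDIT3 changed by 2.71 ± 0.21 in CEM and 1.06 ± 0.20 in DND41. EIF2AK4 fell in CEM and not in DND41 (-0.78 against 0.22, a difference of -1.0, adjusted p = 0.0007), and NR3C1 differed by 0.97 (adjusted p = 0.0011), rising in CEM and changing by -0.51 in DND41. SLC7A11 differed by 2.04 (adjusted p = 0.021), a call lost without untreated C, treated B or treated C. It went from 21.6 to 268 CPM in CEM and from 104 to 312 CPM in DND41, which ended higher. On the other side were the histone genes HIST1H2BM (-3.75), HIST1H2AJ (-3.25) and HIST1H4F (-4.23), whose levels in untreated DND41 were low, at 4.71, 10.4 and 0.157 CPM, together with PRR5L (-4.47) and B3GNT5 (-3.25). PRR5L and B3GNT5 were low in DND41 as well, at 0.0573 and 0.0761 CPM untreated and 0.575 and 0.237 CPM treated, so their differences rest on few counts there. HIST1H4F was lost without untreated B (adjusted p = 0.23).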

How the data were processed

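Total RNA was sequenced from 7 cell lines. Per the labels' protocols, RNA was extracted with a column kit. The deposited values are read counts per gene symbol, in a separate table for each line; they are whole numbers whose sums differ between libraries, so no normalization was applied to them; the submitters' processing notes name hg19. Aligner, counter, annotation, strandedness and RNA selection: not given in the sources used here. Tables were joined on symbols; 24 date-like symbols are not named and 2 duplicated ones were left out.

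CEM was tested with edgeR 4.0.16 (R 4.3.3): TMM, filterByExpr (minimum count 10), glmQLFit and glmQLFTest, Benjamini-Hochberg over all genes, threshold 0.05. SE is the log2 fold change divided by the root of F. A joint edgeR fit of 42 libraries, 1 coefficient per group, tested CEM against the other lines and DND41. Totals per CEM library ranged from 22.68 to 71.52 M counts, so 1 CPM rests on at least 22.68 counts. Replicates differed beyond sampling noise (chi-square per degree of freedom of 13.5 or more). The scripts were tested on simulated data. There, the joint model found 66% of 2-fold and 91% of 4-fold differences between CEM and the mean of the other lines. Against DND41 it found 39% and 86%, so many 2-fold differences between lines would be missed.

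Column letters, which no label mentions, may pair untreated with treated libraries. Deviations from group means correlated at 0.39 (A), 0.23 (B) and 0.37 (C) over 9217 genes, against -0.34 to 0.002 for other pairs. Taking deviations from group means ties these values together, so the other pairs are no independent comparison. Letter as a block was an alternative, as were DESeq2 1.42.0, RLE, other filters, thinning and leaving out libraries.

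Genes were named by rule: 12 genes always included (mostly stress genes), the 12 largest rises and falls (called, average log2 CPM of at least 1, no overlap), the 8 largest CPM differences, up to 5 called members per list and direction, and the 8 (other lines) and 5 (DND41) largest response differences each way. Other list members are named as examples or because they did not pass, and were chosen after their values were seen. Members and lists were chosen with earlier results of these data known; promoters are RefSeq's, by symbol. Some genes are not reported here.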

Additional observations from a re-analysis of the deposited data

Results flagged for a closer look

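For the genes that follow, the log2 response of CEM differed from that of the other lines in the test of the difference itself (edgeR, adjusted over all 20983 genes). Values are the response of CEM minus the mean response of the other 6 lines. Above that mean were ASNS (1.64), SLC7A11 (1.74), SLC6A9 (1.99), ROCK1P1 (2.40), CEBPB-AS1 (1.08), ARRDC4 (1.60), KLF10 (1.93), NR3C1 (0.58), PAX8-AS1 (4.00), STAT4 (3.10), HECW1 (2.84), CAMSAP2 (2.52), MYO7A (2.20) and TBC1D8 (1.98). Below it were PPFIA4 (-1.51), TSPAN9 (-3.05), RP11-798M19.6 (-1.43), XBP1 (-0.90), NDRG1 (-1.25), MMP11 (-2.59), NEIL2 (-2.24), CD1C (-2.17), TLR1 (-2.03), B3GNT5 (-1.99), MICAL2 (-1.97, without a fall in CEM) and SNX22 (-1.88).

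Against DND41 alone, the difference was positive for ASNS (1.97), DDIT3 (1.65), SLC7A11 (2.04), SLC6A9 (2.62), ROCK1P1 (2.50), GPT2 (2.65), CEBPB-AS1 (1.40), ARRDC4 (1.70), NR3C1 (0.97), PAX8-AS1 (4.23), STAT4 (3.29) and TBC1D8 (2.72). It was negative for TSPAN9 (-2.77), EIF2AK4 (-1.0), B3GNT5 (-3.25, at a mean of 0.237 CPM or less in DND41), PRR5L (-4.47, at 0.575 CPM or less in DND41), HIST1H4F (-4.23), HIST1H2BM (-3.75) and HIST1H2AJ (-3.25). In both sets calls were lost when 1 CEM library was left out. Against DND41 these were ARRDC4 without any 1 library but treated A (adjusted p = 0.05 to 0.067), TSPAN9 without untreated B (0.05), untreated C (0.055) or treated A (0.061), CEBPB-AS1 without untreated A (0.066) or C (0.058), SLC7A11 without untreated C (0.08), treated B (0.059) or treated C (0.053), and HIST1H4F without untreated B (0.23). Groups of 3 libraries are too small for a check of single outlying samples.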

How the results depend on the processing

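The CEM response kept its direction under each alternative run. It had 5763 called genes with DESeq2 (5575 shared with the 5903, all with the same sign), 5943 with RLE, 6310 with no filter, 5574 with a minimum count of 50, 5427 after thinning and 6792 with the replicate letter as a block (5888 shared). Leaving out 1 CEM library gave 2255 to 3437 higher and 2038 to 3407 lower genes, 545 to 853 and 511 to 644 of them by at least 2-fold. With a minimum count of 50, 375 genes were higher and 358 lower by at least 2-fold, against 636 and 577, with fewer genes tested.

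Counts of genes whose response differed between lines moved more. Without 5 untreated libraries of other lines they were 437 above and 302 below the mean of the others, and 905 above and 524 below DND41. Without 3 treated libraries, 77 lay below the mean of the others, and with no filter 106 lay below DND41. Without 1 CEM library they were 50 to 74 above and 34 to 71 below the others, and 113 to 134 above and 76 to 109 below DND41. The cause was not tested. With the block they were 216 and 207, and 308 and 295. The block also called MICAL2 (0.21, adjusted p = 0.039 by edgeR) and HIST1H4F (1.48, 0.0095) in CEM, ended the calls of SLC6A9 (1.96, 0.054) and MMP11 (-2.67, 0.064) against the other lines, and gave 2 heat shock, 5 p53 target and 2 mitosis genes higher; it changed no other call of a named gene, nor any other list count by over 1.5 times. Treated libraries were all deeper than untreated ones, which limits genes near 1 CPM. With n = 3 from 1 line, p-values describe these experiments.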
